A study of Mus musculus with 10 samples.

Results

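The SLIT and ROBO genes and the class 3 semaphorin and neuropilin genes are 2 guidance systems, and 10 of their genes were followed here: the secreted ligand genes Slit2 and Slit3, their receptor genes Robo1 and Robo2, the ligand genes Sema3a, Sema3c and Sema3d, and the receptor genes Nrp1, Nrp2 and Plxnd1. They were taken by gene symbol, and the choice was made with earlier results of these data known. All 10 were found among the 25239 symbols of the count table. All 10 passed the filter on low counts that left 15416 genes for testing. Expression was compared between 2 populations sorted from calvarial sutures, the fibrous joints of the skull vault, at postnatal day 7, one labelled DDR2-plus and one labelled PSC, with 5 libraries each, both described as stem cells of the skull vault. Both groups are labelled as wild type, yet the extraction notes say the mice carried Ctsk-Cre, a recombinase under the gene of cathepsin K, a protease of osteoclasts and of some periosteal and suture cells. The labels do not give strain, sex, sorting gates or the animal behind each library, so the spread behind each p-value is that of these libraries and may be technical. The abbreviation PSC is not expanded in the labels.

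SLIT proteins are secreted ligands that bind ROBO receptors at the cell surface, first known for repelling growing axons, and SLIT3 made by the osteoblast lineage is known in mice to act on bone and its vessels. Class 3 semaphorins are secreted ligands that mostly act through a neuropilin, which binds the ligand, and a plexin, which carries the signal into the cell. Sema3A is known in mouse bone as a factor that restrains osteoclasts and favours osteoblasts, and neuropilins are also co-receptors of VEGF.

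In DDR2-plus, 6 of the 10 genes were lower than in PSC, namely Slit2, Slit3, Robo2, Sema3a, Sema3c and Plxnd1. Nrp1 was higher, and Robo1, Sema3d and Nrp2 did not pass the test. The test was edgeR's quasi-likelihood test with TMM scaling, which corrects library size for differences in composition, with Benjamini-Hochberg adjustment over all tested genes and a threshold of 0.05. By the same test 39.1% of all tested genes changed, 20.1% as higher and 19.0% as lower in DDR2-plus. Levels are given as CPM, counts relative to the TMM-scaled library size. The median log2 fold change of the 10 genes was -0.70, against 0.04 over all tested genes. Each library pools many cells, so fewer cells that express a gene and less RNA per cell cannot be told apart.

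**Figure D1:**
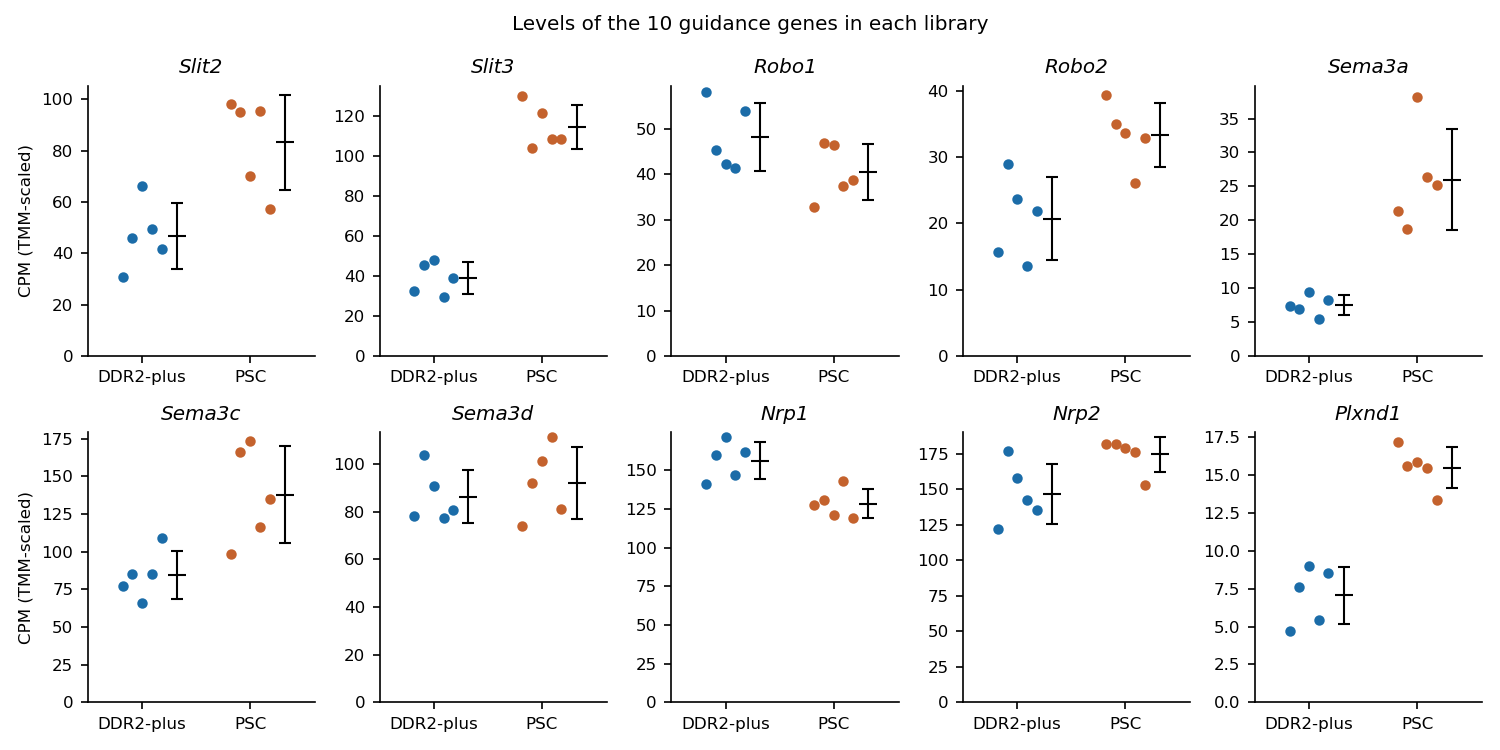
TMM-scaled CPM (counts relative to library size, vertical axes from 0) of each of the 10 genes in every library, with the 5 DDR2-plus libraries left of the 5 PSC libraries in order of their number; the black mark is the mean and SD. The points of Slit3, Sema3a and Plxnd1 do not overlap between the populations, and those of Sema3d overlap widely.

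The libraries had between 49843470 and 62021992 counts in DDR2-plus and between 43419129 and 58270419 counts in PSC, and the lowest count of any of the 10 genes in a library was 267. As a check of the labels, Ddr2 mRNA averaged 112 ± 3.56 CPM in DDR2-plus, against 152 ± 10.7 CPM in PSC (SD; adjusted p = 0.000165 by edgeR), so it was lower in the population named for it. Ctsk mRNA averaged 107 ± 15.2 CPM in DDR2-plus, against 294 ± 14.97 CPM in PSC (SD; adjusted p = 4.36e-07 by edgeR). The labels do not say what the sort read, and mRNA is an indirect measure of protein. Why Ddr2 mRNA was lower in DDR2-plus was not tested. Of 10 chondrocyte markers 10 were higher in DDR2-plus, and their summed level lay between 89350 and 124200 CPM in DDR2-plus and between 11990 and 27100 CPM in PSC. Of 10 osteoblast markers 8 were lower, with sums between 29700 and 52700 CPM in DDR2-plus and between 160900 and 182700 CPM in PSC. Of 9 tendon and periosteum markers 8 were lower, with sums between 4170 and 5338 CPM in DDR2-plus and between 8758 and 10940 CPM in PSC, and Fmod, the 1 that was higher, made up 3021 to 3914 CPM of it in DDR2-plus and 2072 to 2959 CPM in PSC. DDR2-plus thus held more cartilage transcripts and fewer bone and periosteal ones, and it also held more transcripts of other tissues. Of 14 neuron markers 10 were higher, with sums of 82.5 to 227.5 CPM in DDR2-plus and 32.1 to 51.9 CPM in PSC. Without Gap43 the other 13 summed to 72.1 to 199.8 CPM in DDR2-plus and 7.99 to 17.3 CPM in PSC. Of 11 Schwann cell and glia markers 9 were tested and 7 were higher, with sums of 221 to 713 CPM in DDR2-plus and 9.39 to 42.8 CPM in PSC. Of 10 pineal and photoreceptor markers 9 were higher, with sums of 207 to 325 CPM in DDR2-plus and 5.00 to 7.83 CPM in PSC, where Cdhr1 and Aanat had 0 counts. In the chondrocyte and osteoblast lists 1 collagen gene carried most of the sum. Without Col2a1 the other 9 chondrocyte markers summed to 24150 to 33020 CPM in DDR2-plus and 4574 to 7906 CPM in PSC. Without Col1a1 the other 9 osteoblast markers summed to 6747 to 13750 CPM in DDR2-plus and 34590 to 47680 CPM in PSC. In the next 3 lists, too, 1 gene carried much of the sum and is given apart. Of 7 olfactory markers 6 were higher and Adcy3 was lower, at 34.5 to 61.3 CPM in DDR2-plus and 49.7 to 65.4 CPM in PSC. The other 6 summed to 9.72 to 27.1 CPM in DDR2-plus 1 to 4 and to 376 CPM in DDR2-plus 5, against 0.245 to 0.916 CPM in PSC, so every DDR2-plus library held more of them and number 5 the most. Of 8 mural markers 2 were higher and 5 lower. Cspg4 was at 546 to 693 CPM in DDR2-plus and at 281 to 337 CPM in PSC, while the other 7 summed to 201 to 292 CPM in DDR2-plus and 234 to 269 CPM in PSC, with overlap. Of 10 macrophage and osteoclast markers 6 were tested, with 2 higher and 1 lower. Mmp9 was at 533 to 844 CPM in DDR2-plus and at 116 to 363 CPM in PSC, while the other 9 summed to 26.1 to 40.8 CPM in DDR2-plus and 33.4 to 46.6 CPM in PSC, with overlap. The part of these cell types in the differences below was not tested.

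Slit2 and Slit3 lie on different chromosomes, and each holds a copy of the same microRNA in an intron. Mir218-1 (chromosome 5, 48223942 to 48224051, plus strand, GRCm38.p6) lay in an intron of all 4 annotated coding transcripts of Slit2 that span it, and Mir218-2 (chromosome 11, 35616816 to 35616925, plus strand) in an intron of the 1 such transcript of Slit3. The hairpins and their product are shown because these genes are the ligand pair of the comparison and the hosts of that microRNA. The 21 bases of the mature miR-218-5p, which both hairpins yield, are in capitals in the hairpins, and its seed (bases 2 to 8) is in capitals in the mature form. These 3 sequences are from RefSeq.
Mir218-1 hairpin: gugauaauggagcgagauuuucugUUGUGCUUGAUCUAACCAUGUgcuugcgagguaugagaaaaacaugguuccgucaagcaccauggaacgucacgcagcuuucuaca
Mir218-2 hairpin: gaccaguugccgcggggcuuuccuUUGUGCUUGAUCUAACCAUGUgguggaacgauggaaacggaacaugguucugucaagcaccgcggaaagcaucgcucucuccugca
miR-218-5p: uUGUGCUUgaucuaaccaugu
The rows of Mir218-1 and Mir218-2 held 5 and 1 counts over all 10 libraries, and the mature microRNA was not measured by these cDNA libraries. Robo1 is a known target of miR-218 in human cells. The reverse complement of the seed, AAGCACA, was sought on the sense strand in the annotated 3′ untranslated part of the longest coding transcript. It was found in Robo1 (1 match in 1733 bases), Robo2 (2 in 3987 bases), Slit2 (2 in 3492 bases) and Sema3d (1 in 3646 bases). The other 6 genes had none, in parts of 365 (Slit3), 549 (Nrp1), 929 (Plxnd1), 2512 (Sema3c), 2962 (Sema3a) and 3058 bases (Nrp2). A short part has less room for a match. Of 21028 mouse genes with an annotated 3′ untranslated part, of a median length of 934 bases, 13.6% hold at least 1 match. The first match in each ROBO gene is shown, from the GENCODE M21 transcripts, with the match in capitals.
Robo1: tttggttttaaAAGCACAatcactaaact
Robo2: tatttggtgatAAGCACAaatctctactc

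The promoters of the ligand pair, 250 bases before to 50 after the RefSeq start, are shown because Slit2 and Slit3 were both lower in DDR2-plus. Capitals mark TATAAA and GGGCGG on either strand, the letters of a TATA box and of a GC box. The first is that of Slit2 (chr5:47982905-47983204, plus strand, GRCm38.p6) and the second that of Slit3 (chr11:35121206-35121505, plus strand, GRCm38.p6).
Slit2 promoter: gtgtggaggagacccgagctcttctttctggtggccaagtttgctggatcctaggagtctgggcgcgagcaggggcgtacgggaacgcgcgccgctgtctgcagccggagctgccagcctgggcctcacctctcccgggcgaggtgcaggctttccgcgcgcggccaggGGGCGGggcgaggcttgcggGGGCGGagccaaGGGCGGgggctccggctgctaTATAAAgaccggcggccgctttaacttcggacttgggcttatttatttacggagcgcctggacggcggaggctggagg
Slit3 promoter: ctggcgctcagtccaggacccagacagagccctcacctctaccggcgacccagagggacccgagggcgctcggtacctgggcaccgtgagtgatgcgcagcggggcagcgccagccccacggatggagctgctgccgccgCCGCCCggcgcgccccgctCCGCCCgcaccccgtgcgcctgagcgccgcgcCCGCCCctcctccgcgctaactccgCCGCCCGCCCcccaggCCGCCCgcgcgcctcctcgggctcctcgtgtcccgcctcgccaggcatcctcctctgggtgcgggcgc
Slit2 had TATAAA starting 28 bases before the start, and Slit3 had none in this window, while GGGCGG occurred 3 times in Slit2 and 6 times in Slit3, counting overlapping copies. Over 32851 mouse promoters of the same length, 13.6% held TATAAA and 35.7% held GGGCGG. The Slit2 and Slit3 windows held 30 and 41 CG pairs, against a median of 7 over all promoters. The Sema3a window (chromosome 5, 13396534 to 13396833) held 2 CG pairs, no TATAAA and no GGGCGG. Its start lies 271370 bases inside the GENCODE gene, and counts per gene do not tell alternative starts apart.

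The SLIT ligand genes were both lower in DDR2-plus. Slit3 (mm10 chromosome 11, 35121224 to 35708507, plus strand) was at 32.4, 45.3, 48.1, 29.7 and 39.0 CPM in DDR2-plus libraries 1 to 5, against 130.2, 104, 122, 109 and 109 CPM in PSC libraries 1 to 5. Every DDR2-plus library was below every PSC library. The mean was 38.9 ± 7.94 CPM in DDR2-plus, against 115 ± 10.9 CPM in PSC, a 2.95-fold lower level (log2 fold change -1.56 with an SE of 0.132, 5 libraries each, adjusted p = 2.21e-06 by edgeR). Slit2 (chromosome 5, 47983138 to 48307733, plus strand) was at 30.9, 45.8, 66.2, 49.4 and 41.8 CPM in DDR2-plus, against 98.3, 94.98, 70.1, 95.4 and 57.3 CPM in PSC. The groups overlapped, since PSC 5 lay below DDR2-plus 3, and the other 4 DDR2-plus libraries lay below all of PSC. Slit2 was 1.78-fold lower (log2 fold change -0.83 with an SE of 0.195, 5 libraries each, adjusted p = 0.00465 by edgeR). The third ligand gene, Slit1, which is mostly neural, did not pass the filter, with 300 counts over the DDR2-plus libraries and 5 over the PSC libraries.

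The fall was larger for Slit3 than for Slit2, which was tested inside each library, where scaling does not enter. There were 0.953, 1.01, 1.38, 1.66 and 1.07 Slit2 counts per Slit3 count in DDR2-plus libraries 1 to 5, against 0.755, 0.910, 0.576, 0.878 and 0.528 in PSC. The log2 ratio was 0.25 ± 0.34 in DDR2-plus and -0.49 ± 0.36 in PSC (SD, n = 5 each), a difference of 0.74 with no overlap (two-sided exact permutation p = 0.00794, which is the lowest possible with 5 libraries against 5; adjusted p = 0.0132 over 5 ratios). Such ratios also hold the lengths of the genes, so their size is read only between populations. The 5 ratios were chosen with earlier results of these data known.

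The ROBO receptor genes lie 845.7 kb apart on chromosome 16 and differed in their response. Robo2 (chromosome 16, 73891839 to 74411825, minus strand) was at 15.6, 28.9, 23.6, 13.5 and 21.8 CPM in DDR2-plus, against 39.4, 35.0, 33.6, 26.1 and 32.8 CPM in PSC. All DDR2-plus libraries but number 2 lay below the lowest PSC library. Robo2 was 1.61-fold lower (log2 fold change -0.69 with an SE of 0.191, 5 libraries each, adjusted p = 0.0122 by edgeR). That call was lost when library size alone was used for scaling (adjusted p = 0.0792 by edgeR) and with numbers 1, 2 and 4 only (adjusted p = 0.0715 by edgeR), the lowest adjusted p of 17 alternatives being 0.00332. Robo1 (chromosome 16, 72308306 to 73046095, plus strand) was at 58.2, 45.3, 42.4, 41.3 and 54.0 CPM in DDR2-plus, against 32.9, 47.0, 46.6, 37.5 and 38.7 CPM in PSC. Its groups overlapped, and its log2 fold change of 0.25 (95% interval -0.03 to 0.53, adjusted p = 0.14 by edgeR) did not pass, although with library size alone it did, at 0.52 (adjusted p = 0.00565 by edgeR; highest adjusted p of 17 alternatives 0.338). The 2 highest Robo1 values in DDR2-plus were in libraries 1 and 5, which also had the highest sums of the neuron markers, 227.5 and 224.7 CPM, while the sums were 82.5, 145 and 132.5 CPM in libraries 2, 3 and 4. Whether neural RNA adds to Robo1 was not tested.

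The balance of the receptors shifted toward Robo1 in DDR2-plus. There were 3.73, 1.56, 1.79, 3.05 and 2.47 Robo1 counts per Robo2 count in DDR2-plus libraries 1 to 5, against 0.835, 1.34, 1.39, 1.44 and 1.18 in PSC. The log2 ratio was 1.26 ± 0.52 in DDR2-plus and 0.28 ± 0.32 in PSC (SD, n = 5 each), with no overlap (two-sided exact permutation p = 0.00794, adjusted p = 0.0132). The other receptor genes, Robo3 and the endothelial Robo4, did not pass the filter, with 6 and 200 counts over the DDR2-plus libraries and 4 and 10 over the PSC libraries.

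**Figure D2:**
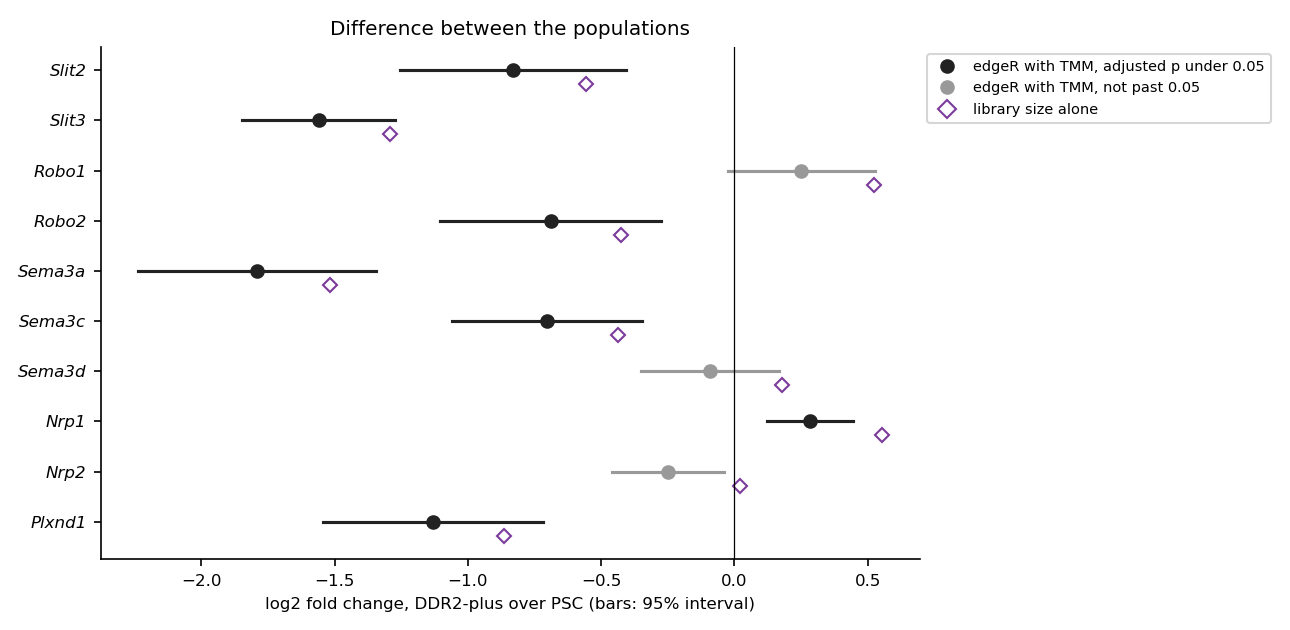
Log2 fold change of each gene, DDR2-plus over PSC (horizontal axis), from edgeR with TMM scaling (filled points with 95% intervals, grey where the adjusted p was not under 0.05) and with library size alone (open diamonds). Slit3 and Sema3a lie farthest below 0, and Sema3d and Nrp2 change sign between the scalings.

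Of the class 3 ligand genes, Sema3a was lower in DDR2-plus with no overlap between the groups. Sema3a (chromosome 5, 13125414 to 13602565, plus strand) was at 7.41, 6.95, 9.46, 5.42 and 8.27 CPM in DDR2-plus, against 21.4, 18.7, 38.2, 26.3 and 25.3 CPM in PSC. The highest DDR2-plus library was below the lowest PSC library. It was 3.46-fold lower, at a mean of 7.501 ± 1.505 CPM in DDR2-plus, against 26.0 ± 7.47 CPM in PSC (log2 fold change -1.79 with an SE of 0.206, 5 libraries each, adjusted p = 2.41e-05 by edgeR). Without any 1 library its log2 fold change stayed between -1.90 and -1.61.

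Sema3c, known in mice as a ligand in heart outflow tract and vessel development, had the highest mean level per transcript length of the 3 ligand genes in both populations. Sema3c (chromosome 5, 17574281 to 17730268, plus strand) was at 77.1, 85.4, 65.8, 85.4 and 109 CPM in DDR2-plus, against 98.4, 166, 174, 116 and 135 CPM in PSC. The groups overlapped through DDR2-plus 5 and PSC 1. It was 1.63-fold lower (log2 fold change -0.70 with an SE of 0.164, 5 libraries each, adjusted p = 0.0044 by edgeR). Sema3d (chromosome 5, 12383385 to 12588948, plus strand) was at 78.3, 104, 91.0, 77.5 and 80.9 CPM in DDR2-plus, against 74.0, 91.9, 102, 111 and 81.3 CPM in PSC. Its log2 fold change was -0.09 (95% interval -0.35 to 0.17, adjusted p = 0.583 by edgeR) and 0.18 with library size alone, so its direction rests on the scaling. The interval excludes a change as large as that of Sema3a or Sema3c at their fitted values.

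Within libraries, the ratios shifted away from Sema3a toward Sema3c, and away from Sema3c toward Sema3d. There were 0.0962, 0.0815, 0.144, 0.0635 and 0.0758 Sema3a counts per Sema3c count in DDR2-plus libraries 1 to 5, against 0.218, 0.113, 0.220, 0.227 and 0.187 in PSC. The log2 ratio was -3.50 ± 0.45 in DDR2-plus and -2.42 ± 0.42 in PSC (SD, n = 5 each), and only PSC 2 fell in the range of DDR2-plus (two-sided exact permutation p = 0.0159, adjusted p = 0.0198). The log2 ratio of Sema3d over Sema3c was 0.04 ± 0.35 in DDR2-plus and -0.57 ± 0.33 in PSC (SD; two-sided exact permutation p = 0.0397, adjusted p = 0.0397). That last difference did not pass when DDR2-plus 1, 2 or 3 or PSC 2, 3 or 5 was left out, with adjusted p from 0.0556 to 0.0635 and differences from 0.50 to 0.61.

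These 3 ligand genes lie with Sema3e in a stretch of 5.35 Mb of chromosome 5, in the order Sema3d, Sema3a, Sema3e and Sema3c, all on the plus strand. The gaps between neighbours were 536.5 kb, 422.7 kb and 3318 kb. Sema3d and Sema3a, neighbours with no other class 3 gene between them, had log2 fold changes of -0.09 and -1.79, a difference that was not tested itself. Sema3e, a direct ligand of plexin D1, was low, at 2.19 ± 1.29 CPM in DDR2-plus, against 1.14 ± 1.82 CPM in PSC (SD, adjusted p = 0.453 by edgeR). Of all 7 class 3 genes tested, 4 (57.1%, against 19.0% of all tested genes) were lower and 3 did not pass. Besides Sema3a and Sema3c these were Sema3b, 3.37-fold lower at 38.8 ± 8.43 CPM in DDR2-plus, against 131 ± 17.5 CPM in PSC, and Sema3f, 2.29-fold lower.

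Nrp1 was the only 1 of the 10 genes to pass as higher in DDR2-plus. Nrp1 (chromosome 8, 128358604 to 128503363, plus strand), which binds Sema3A and VEGF, was at 141, 159.7, 172, 147 and 161 CPM in DDR2-plus, against 128, 131, 121, 143 and 119 CPM in PSC. The ranges overlapped through DDR2-plus 1 and PSC 4. The level was 1.22-fold higher (log2 fold change 0.28 with an SE of 0.0748, 5 libraries each, adjusted p = 0.00907 by edgeR). With numbers 1, 2 and 4 only, the difference was 0.16 and did not pass (adjusted p = 0.199 by edgeR, the highest of 17 alternatives). The lowest adjusted p of the 17 was 5.34e-05, by edgeR with library size alone, where the log2 fold change was 0.555. Nrp2 (chromosome 1, 62703285 to 62818695, plus strand), which binds Sema3C and Sema3F, was at 122, 177, 158, 143 and 136 CPM in DDR2-plus, against 182, 182, 179, 176 and 153 CPM in PSC. Its log2 fold change was -0.25 (95% interval -0.46 to -0.04 before adjustment, adjusted p = 0.0598 by edgeR), and 0.02 with library size alone. Nrp2 passed as lower in 4 of 17 alternatives, which were limma-voom (adjusted p = 0.0391) and the replicate block in edgeR (adjusted p = 0.0422) with all libraries, and the edgeR fits without DDR2-plus 2 (adjusted p = 0.0141) and without PSC 5 (adjusted p = 0.036). The highest adjusted p over the alternatives was 0.873.

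The neuropilin ratio, into which scaling does not enter, shifted toward Nrp1. There were 1.16, 0.902, 1.09, 1.03 and 1.19 Nrp1 counts per Nrp2 count in DDR2-plus libraries 1 to 5, against 0.700, 0.719, 0.676, 0.809 and 0.776 in PSC. Every DDR2-plus ratio exceeded every PSC ratio. The log2 ratio was 0.10 ± 0.16 in DDR2-plus and -0.45 ± 0.11 in PSC (SD, n = 5 each), with no overlap (two-sided exact permutation p = 0.00794, adjusted p = 0.0132).

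**Figure D3:**
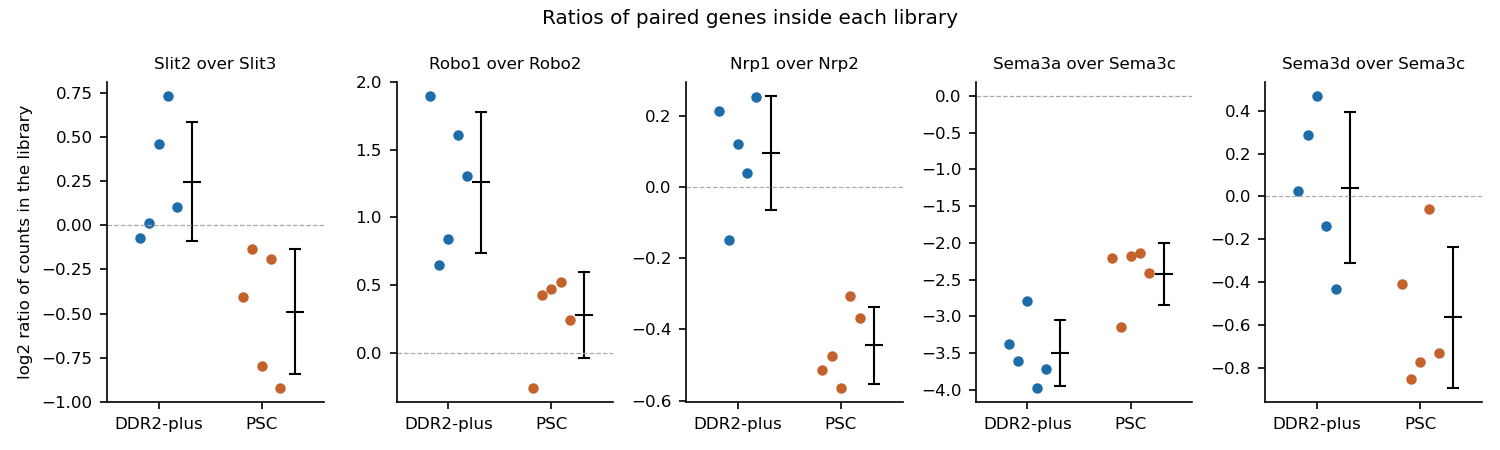
Log2 ratio of the counts of paired genes inside each library (vertical axes, which differ between panels), with the 5 DDR2-plus libraries left of the 5 PSC libraries; the black mark is the mean and SD and the dashed line equal counts. The populations do not overlap for Slit2 over Slit3, Robo1 over Robo2 and Nrp1 over Nrp2.

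Plxnd1, the receptor of Sema3e and, with a neuropilin, of Sema3c, known in mice from endothelial cells, had the lowest level per length of the longest coding transcript among the 10 genes. Plxnd1 (chromosome 6, 115954811 to 115995005, minus strand) was at 4.73, 7.63, 8.98, 5.46 and 8.51 CPM in DDR2-plus, against 17.2, 15.6, 15.9, 15.4 and 13.3 CPM in PSC. No DDR2-plus library reached the lowest PSC library. The level was 2.19-fold lower (log2 fold change -1.13 with an SE of 0.191, 5 libraries each, adjusted p = 0.000467 by edgeR). The groups did not overlap for 3 of the 10 genes, Slit3, Sema3a and Plxnd1, while 30.1% of all tested genes had groups without overlap. The sum of 9 endothelial markers, a list that includes Kdr, given because Nrp1 and Plxnd1 are also endothelial genes, lay between 33.1 and 57.7 CPM in DDR2-plus and between 30.4 and 49.0 CPM in PSC. Of its 7 tested members 2 were higher and 2 lower.

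Expressed per kilobase of the longest coding transcript, the mean levels of the 10 genes spanned from 43.4 CPM per kb for Nrp1 to 1.02 CPM per kb for Plxnd1 in DDR2-plus, and from 35.65 to 2.24 CPM per kb for the same genes in PSC. In DDR2-plus the order below Nrp1 was Nrp2 (21.9), Sema3c (15.4), Sema3d (13.7), Slit3 (7.44), Robo1 (6.38), Slit2 (4.70), Robo2 (2.41) and Sema3a (1.265 CPM per kb). In PSC it was Nrp2 (26.0), Sema3c (25.1), Slit3 (21.95), Sema3d (14.6), Slit2 (8.36), Robo1 (5.36), Sema3a (4.38) and Robo2 (3.89 CPM per kb). Most neighbours in these orders had overlapping ranges; in DDR2-plus the steps from Nrp1 to Nrp2 and from Sema3d to Slit3 had none. In PSC the steps without overlap were from Nrp1 to Nrp2, from Slit3 to Sema3d, from Sema3d to Slit2 and from Robo2 to Plxnd1. Slit3 stood at the 60.9th percentile of the 14259 tested genes with such a length in DDR2-plus and at the 82.8th percentile in PSC. Per kilobase of all annotated exonic bases the PSC order began with Sema3c and Slit3 (19.3 and 18.9 CPM per kb). The 2 lengths of Nrp1 are 3597 and 9785 bases, so the place of Nrp1 rests on the length used. By all exonic bases Sema3a, not Plxnd1, was the lowest, at 0.541 CPM per kb in DDR2-plus and 1.87 CPM per kb in PSC. The lowest place thus rests on the length used as well.

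Within a population, the same libraries often held the highest or lowest level of several genes. Among the DDR2-plus libraries, number 3 was the highest for 5 of the 10 genes (Slit2, Slit3, Sema3a, Nrp1 and Plxnd1), and number 1 or 4 was the lowest for 9 of them, Sema3c being the exception. DDR2-plus 3 also had the highest sum of osteoblast markers, 52700 CPM, and the lowest of chondrocyte markers, 89350 CPM. DDR2-plus 1 and 4 had osteoblast sums of 29700 and 30440 CPM, and chondrocyte sums of 106900 and 124200 CPM. DDR2-plus 2 and 5 had osteoblast sums of 39570 and 40320 CPM, and chondrocyte sums of 121600 and 114800 CPM. Among the PSC libraries, number 1 was the highest for Slit2, Slit3, Robo2, Nrp2 and Plxnd1 and the lowest for Robo1, Sema3c and Sema3d. The part of osteoblast and chondrocyte content in this variation was not tested.

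Of the other 67 genes listed for these systems, 62 were tested, and 14 were higher and 22 lower in DDR2-plus. The share that was higher, 22.6%, was near the 20.1% of all tested genes. The share that was lower was 35.5%, against 19.0%. The list was written with earlier results of these data known, and its median log2 fold change was -0.12. With library size alone the split was 23 higher and 12 lower, the median of all genes moving by 0.27 on the log2 scale. That scaling called 5421 of all tested genes higher and 1538 lower.

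The semaphorins anchored in the membrane, which can act as ligands between touching cells, included 6 of 13 that were lower and 1 that was higher. These shares were 46.15% and 7.69%, against 19.0% and 20.1% of all tested genes. Sema5a, a membrane semaphorin with thrombospondin repeats, was 2.30-fold lower, at 42.5 ± 6.07 CPM in DDR2-plus, against 97.9 ± 12.6 CPM in PSC (SD, adjusted p = 6.26e-06 by edgeR). Sema4d, known in mice as an osteoclast product that holds back osteoblasts, was 1.997-fold lower, and Sema6a was the 1 that was higher, 1.77-fold. Sema5b was 3.36-fold lower in the fit of all libraries (adjusted p = 0.0288 by edgeR), but it did not pass without DDR2-plus 1, 4 or 5 or PSC 3 (adjusted p over 17 alternatives 0.00235 to 0.0891), and its log2 fold change was -2.49 without DDR2-plus 3 and -1.34 without PSC 3.

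The plexins, which carry the signal into the cell, went both ways: 3 of 8 tested were higher and 2 lower. Of all tested genes 20.1% were higher and 19.0% lower, and the counts of these 8 genes were not tested against those shares. Plxnb1, the receptor of Sema4D, was 2.42-fold higher, at 79.6 ± 12.4 CPM in DDR2-plus, against 32.9 ± 9.55 CPM in PSC (SD, adjusted p = 0.000124 by edgeR). Plxnb2 was 1.36-fold and Plxna2 1.51-fold higher. Besides Plxnd1, Plxna1 was 1.46-fold lower, a call lost with library size alone (adjusted p = 0.0938 by edgeR, the highest of 17 alternatives, the lowest being 0.00118), and 10.7% of its exonic bases are shared with an antisense gene. These 4 plexins outside the original 10 genes were singled out after their values were seen.

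**Figure D4:**
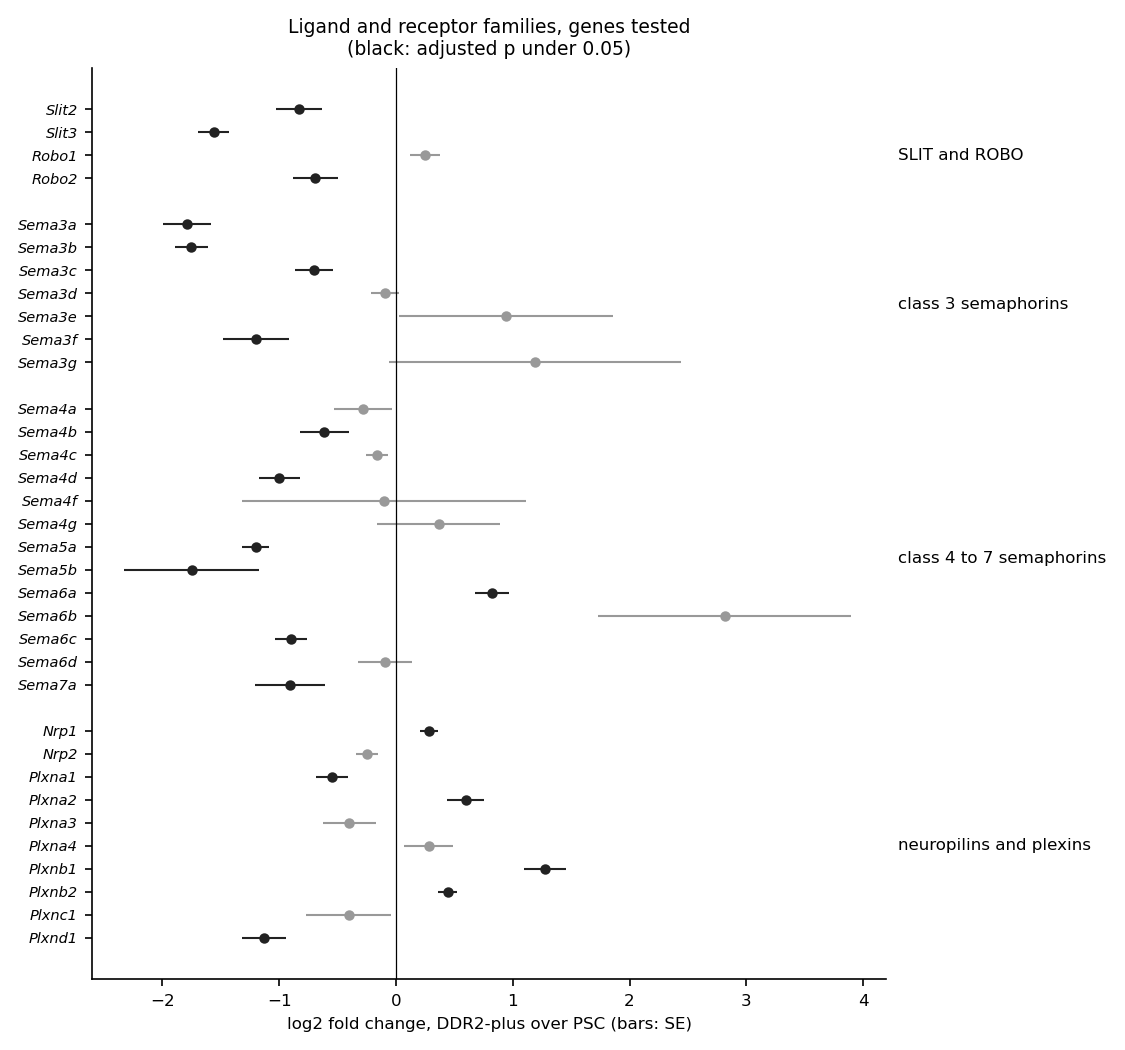
Log2 fold change, DDR2-plus over PSC (horizontal axis), with SE for the tested SLIT, ROBO, semaphorin, neuropilin and plexin genes, in black where the edgeR adjusted p was under 0.05. The 4 called class 3 semaphorins lie below 0, and the 5 called plexins on both sides of it.

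Among the genes that work inside the cell, 12 of 24 were lower and 6 higher. For comparison, 19.0% of all tested genes were lower and 20.1% higher, so the count stood farther from these shares for lower than for higher genes. Dpysl3, a collapsin response mediator of semaphorin signalling in neurons, was 2.77-fold lower, at 114 ± 27.8 CPM in DDR2-plus, against 315 ± 47.4 CPM in PSC (SD, adjusted p = 1.42e-05 by edgeR), and Fes, a tyrosine kinase, was 2.14-fold lower. The largest rises were in relatives known from neurons. Crmp1 was at 39.5, 6.29, 13.2, 15.9 and 17.5 CPM in DDR2-plus libraries 1 to 5, against at most 1.98 CPM in PSC, where most of its counts came from PSC 2. Its log2 fold change was 5.34, and 7.87 without PSC 2, with an edgeR adjusted p of 0.00104 in all libraries and of 2.57e-05 to 0.0325 over 17 alternatives. Dpysl5 was 10.2-fold and the GTPase gene Rnd1 9.03-fold higher. The adhesion co-receptor gene Chl1 had 0 counts over the PSC libraries and was at least 272-fold higher in DDR2-plus, taking 3 counts over the group as the floor, and Nrcam was 3.28-fold higher. Kdr, a VEGF receptor that pairs with Nrp1 in endothelium, was 5.15-fold higher (adjusted p = 0.00421 by edgeR). Its groups overlapped, with DDR2-plus 5 at 6.19 CPM below PSC 3 at 6.23 CPM. Its log2 fold change was 2.37, and 3.08 without PSC 3. The sums of neuron and glia markers given above were higher in the same libraries, and their part in these rises was not tested.

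The most abundant of these genes without a call were Gpc1 (944 CPM in DDR2-plus, 861 CPM in PSC), a heparan sulfate proteoglycan that binds SLIT, Dag1 (244 CPM in DDR2-plus, 278 CPM in PSC), which encodes dystroglycan, a further SLIT-binding protein, Furin (112 CPM in DDR2-plus, 78.9 CPM in PSC), a protease that cuts class 3 semaphorins, and Ptk7 (107 CPM in DDR2-plus, 99.9 CPM in PSC). Gpc1, Furin and Ptk7 passed as higher with library size alone, and Furin also with DESeq2 (adjusted p = 0.0459) and without PSC 4 (adjusted p = 0.0337 by edgeR). The log2 fold change of Dag1 was -0.19 with TMM and 0.08 with library size alone, and it passed as lower in 5 of 17 alternatives, namely limma-voom, without DDR2-plus 2, without DDR2-plus 5, without PSC 5, and numbers 1, 2 and 4 only (adjusted p over all 17 from 0.0345 to 0.375). Of Gpc1, 18.9% of the exonic bases are shared with a gene on the other strand, and the library kit does not mark strand.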

How the data were processed

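The deposited table holds whole-number counts per gene symbol in 10 libraries, not normalized, as its values show. Per the labels' protocols, RNA of sorted cells was amplified with a full-length template-switching kit and made into libraries with a transposase kit. Per the submitters' processing notes, the build was mm10 and the analysis used DESeq, with the aligner, counter and annotation not given in the sources used here.

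Groups came from the sample titles. Counts were fitted with edgeR 4.0.16 (quasi-likelihood test, TMM, filterByExpr, no covariates) under R 4.3.3 and adjusted over all 15416 tested genes. SE was derived from the fold change and F. DESeq2 1.42.0 and limma-voom (limma 3.58.1) were alternatives. Ratios inside a library used log2 of counts plus 0.5. CPM is scaled by TMM, and 1 count was worth 0.0146 to 0.0249 CPM. The PCR-amplified counts are not independent molecules, so the count floor of 3 covers counting error only. Lengths, positions and overlaps came from GENCODE M21 (GRCm38), which matched 96.4% of the symbols.

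The genes, lists and tests were chosen with earlier results of these data known. Named were all 10 genes, and of the other pathway genes the 6 largest called changes per direction with a mean of at least 1 CPM and the 4 most abundant without a call. Of the netrin list the 2 largest per direction were named. Of the 10 marker lists the most abundant gene in each population was named.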

Additional observations from a re-analysis of the deposited data

Results flagged for a closer look

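In each of 104 groups of 5 libraries (the named genes and the ratios in each population), the highest or lowest library was set against the others by Dixon's test, and chance alone marks about 1 in 20 such groups. There were 4 groups with a library that stood apart, all among the PSC libraries. Nrp2 was at 153.1 CPM in PSC 5 and between 176.4 and 182.3 CPM in the other 4, and without PSC 5 it passed as lower in DDR2-plus. The log2 ratio of Sema3a over Sema3c was -3.15 in PSC 2 and between -2.42 and -2.14 in the other 4, which left PSC 2 as the only PSC library within the range of DDR2-plus. Crmp1 was at 1.981 CPM in PSC 2 and at no more than 0.151 CPM in the other 4. The pineal marker gene Tph1 was at 1.366 CPM in PSC 3 and had 0 counts in the other 4.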

How the results depend on the processing

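Of 170 recomputed fold changes of the 10 genes (17 settings each), 160 kept their direction and their side of the threshold, 3 lost the threshold, 5 gained it and 2 changed sign. Library size alone moved the median of all genes by 0.27 on the log2 scale. It gave 5421 higher and 1538 lower calls, 2 higher calls among the 10 genes, and 23 higher and 12 lower among the other pathway genes, and it turned Sema3d to 0.18, Nrp2 to 0.021 and Dag1 to 0.078. This scaling corrects for no difference in composition. With numbers 1, 2 and 4 only, a choice known from an earlier analysis, 0 of the 10 genes were called higher by edgeR, also at an unadjusted p under 0.05. The ratio differences were then 0.47 for Slit2 over Slit3, 1.16 for Robo1 over Robo2, 0.47 for Nrp1 over Nrp2, -1.16 for Sema3a over Sema3c and 0.50 for Sema3d over Sema3c, and 3 against 3 cannot pass an exact test. The titles give both populations the numbers 1 to 5 without saying what a number marks. The deviations of same-numbered libraries correlated at 0.00119 to 0.108, and 3 of 5 numbers matched best with their own, so whether the numbers pair the samples is not known and the block was kept as an alternative. With the replicate block the ratio differences of 0.74, 0.98, 0.54, -1.08 and 0.61 are the same by construction, and sign flips of 5 pairs cannot pass. The block gave 1 higher and 7 lower calls among the 10 genes, Nrp2 being the added one. Leaving out each library gave 0.50 to 0.73 for Sema3d over Sema3c, which passed in only some of these fits, while the other 4 ratios passed in all. With 267 to 10492 counts per library the 10 genes are not limited by depth, unlike Slit1, Robo3 and Robo4.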

Other observations

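Netrins and repulsive guidance molecules are further guidance ligands with receptors of their own. Of 13 tested genes on that list, 4 (30.8%) were higher and 5 (38.5%) lower in DDR2-plus, by edgeR with Benjamini-Hochberg adjustment. Over all tested genes the shares were 20.1% and 19.0%. The netrin gene Ntn1 was 3.40-fold lower, at 21.3 ± 7.14 CPM in DDR2-plus, against 72.6 ± 14.2 CPM in PSC (SD over 5 libraries each). Ntng1, a membrane-anchored netrin, was 14.9-fold lower. The netrin receptor gene Unc5c was 2.07-fold higher, at 92.8 ± 12.5 CPM in DDR2-plus, against 44.8 ± 7.08 CPM in PSC. Dcc, a netrin receptor gene of neurons, averaged 6.52 ± 5.18 CPM in DDR2-plus, against 0.194 ± 0.267 CPM in PSC. Its log2 fold change was 5.07 in all libraries and 5.90 without PSC 3, and it did not pass with limma-voom. Neo1, a receptor of repulsive guidance molecules that was picked after its value was seen, was 1.47-fold higher.

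The most abundant marker genes differed as follows. Col2a1, the main cartilage collagen gene, was 6.09-fold and Cspg4 1.94-fold higher in DDR2-plus, and Mmp9 was 2.77-fold higher. Col1a1, the main bone collagen gene, fell by 2.24 on the log2 scale and Postn, a periosteal gene, by 2.52, while Fmod of the same list rose 1.41-fold. The neuronal Syp was 30.6-fold higher, with a log2 fold change of 4.94 in all libraries and of 5.90 without PSC 5. The myelin gene Mbp was 20.7-fold higher. Tph1 had a log2 fold change of 8.02. The other 4 PSC libraries had 0 counts, so without PSC 3 the difference was at least 12.04 on the log2 scale, taking 3 counts over those libraries as the floor. Of the genes highest in PSC, Gap43 had a log2 fold change of -0.37 and Asmt of -0.65, neither passing. Adcy3 (-0.37) and Tek (-0.62) passed as lower with all 10 libraries, and each of them failed in 8 of the 10 fits that left out 1 library.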
